A study of Mus musculus with 15 samples.

Results

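Gene expression in whole embryonic mouse lungs was compared between E13.5 and E12.5 (days of gestation), the first day of a time course of lungs taken directly from embryos. The comparison was chosen by its labels alone: 3 libraries labelled E13.5 against 3 labelled E12.5, which are 6 of the 15 libraries of the series, over all 23420 genes of the count table. The series concerns the pressure across the airway wall during branching of the lung, and its other libraries are lungs of E14.5 and lungs cultured at low or high pressure. All embryos were wild type and of the outbred strain CD1, and none of the fresh lungs was treated or cultured. Each E12.5 library was made from a pool of 6 lungs and each E13.5 library from a pool of 3, per the labels' protocols, so pool size and stage cannot be told apart. No label ties a pool to a litter, so the variation between pools may be technical. A p-value of the main fit reflects the variation left once stage and the replicate number in the label are accounted for. The E14.5 libraries share in the estimate of that variation.

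At these stages the mouse lung is in its pseudoglandular phase. The epithelium, which carries the transcription factor Nkx2-1, forms a branching tree whose Sox9-positive tips grow into a mesenchyme that secretes Fgf10, while smooth muscle wraps the airway stalks and vessels spread between the branches. The blood that fills those vessels holds large primitive red cells made in the yolk sac, which carry embryonic globins and give way to red cells made in the fetal liver.

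The 6 libraries held 19263743 to 21955244 counts in 16465 to 16717 genes. Replicate 1 of both stages stood apart: 76 genes of ribosomal proteins took 3.41% to 3.79% of its counts and 1.69% to 2.15% of the counts of replicates 2 and 3. Stage differences were therefore fitted with the replicate number as a block, which compares libraries of the same number. The data set replicate 1 apart but do not show that 2 pairs with 2 or 3 with 3. Pairs named below follow the numbers in the labels only. The defining markers of lung were present in all 6 libraries, with Nkx2-1 at 62.8 to 94.3 CPM (counts scaled to library size, CPM), Tbx4 of the mesenchyme at 43.6 to 171.7 CPM and Cdh5 of the endothelium at 154.2 to 208.4 CPM. Of the neighbouring tissues, the liver gene Alb was at 0 to 0.489 CPM, the gut gene Cdx2 at 0 to 0.0489 CPM, and the cartilage gene Matn1 was at 0 in all 6. Other markers of these tissues had counts. The cartilage gene Col2a1 was at 49.1 to 116.2 CPM and Acan at 0.193 to 0.722 CPM. The liver gene Afp reached 3.75 CPM and the gut gene Barx1 2.35 CPM. These tissues were thus not shown to be absent from the pools. Markers of heart muscle were present at low and uneven levels, with Myh6 between 0.0501 and 55.1 CPM.

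A single gene of the 14242 tested passed an adjusted p of 0.05 in edgeR's quasi-likelihood test, which is 0.00702% of them, and it was lower at E13.5. That gene, Ifi204, did not reach the test when the 6 libraries of the 2 stages were fitted alone. The next smallest adjusted p was 0.99953. At an unadjusted p under 0.05 there were 553 genes (3.88%), 303 of them higher (2.13%) and 250 lower (1.76%). The differences were also small in size. Size was read in the 10831 genes that averaged 5 CPM or more over the 6 libraries. Those between the 5th and the 95th percentile had log2 fold changes from -0.19 to 0.22, and the median standard error was 0.10. On that filter 6 genes had a log2 fold change of 1 or more and 12 of -1 or less. Leaving out E12.5 replicate 1 gave 41 calls, 16 higher and 25 lower. The count was 2, 0, 2 and 0 without E12.5 replicate 2, E12.5 replicate 3, E13.5 replicate 2 and E13.5 replicate 3, and 3 and 4 without E14.5 replicates 1 and 2, which share the estimate of the spread. DESeq2 called 10 genes and a fit with no block called 0.

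In the same fit the following day had more calls. Between E13.5 and E14.5 there were 856 genes past the threshold (6.01%), 591 higher (4.15%) and 265 lower (1.86%), and the 5th and 95th percentiles of the log2 fold change were -0.31 and 0.45 with a median standard error of 0.10. In that step 132 genes of at least 5 CPM had a fold change of 1 or more on the log2 scale in either direction, against 18 on the first day. For both days the 5 CPM is the mean of the E12.5 and E13.5 libraries. Genes that reach that level only at E14.5 are thus left out of these sizes. Both comparisons use the E13.5 libraries, so their lists of genes were not set against each other. The count for the following day was 187, 77, 400, 402 and 328 without E13.5 replicate 1, E13.5 replicate 2 and E14.5 replicates 1, 2 and 3, and 1296 without E12.5 replicate 3. Each of these counts is above that of the first day without the same library. A fit with no block called 0 genes on either day, so the larger count depends on the block.

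**Figure D1:**
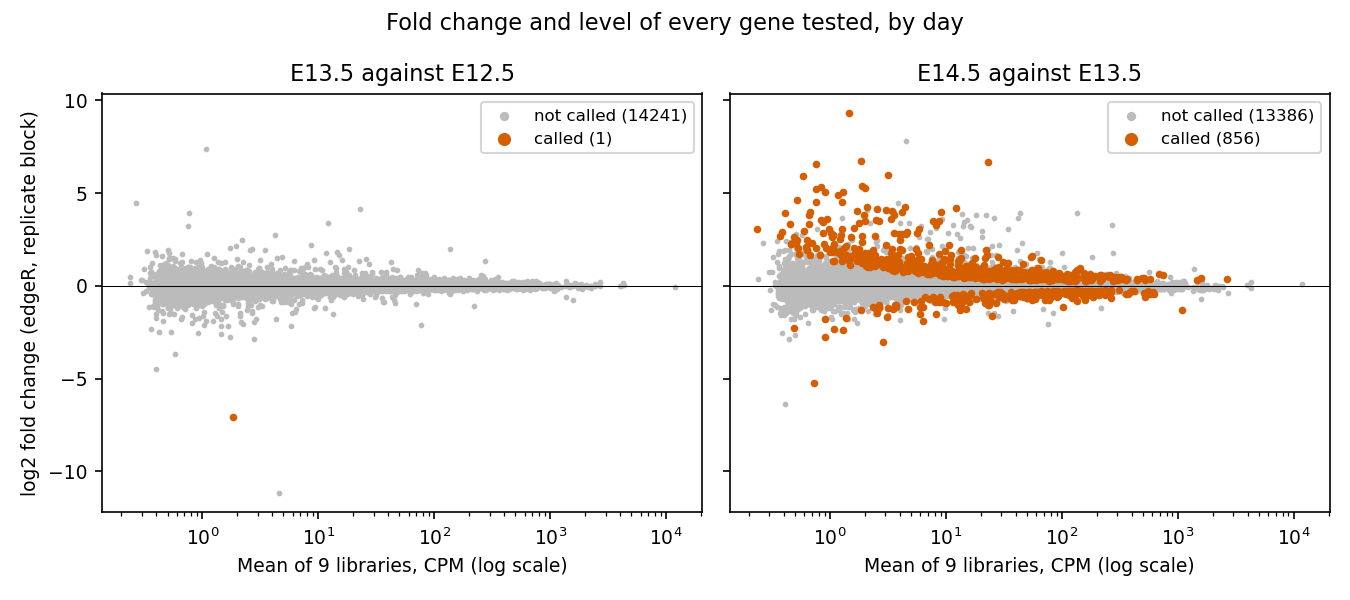
Log2 fold change against mean level (CPM, log axis) for every gene tested, for E13.5 against E12.5 on the left and E14.5 against E13.5 on the right. Coloured points passed an adjusted p of 0.05, 1 gene on the first day and 856 on the second, and grey points did not.

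The gene that passed was Ifi204, an interferon-inducible gene of the cluster of DNA sensors on mouse chromosome 1 (173747293 to 173766943, minus strand, GRCm38). It was at 0.144, 2.66 and 6.92 CPM in E12.5 replicates 1, 2 and 3, and at 0, 0 and 0.0489 CPM in E13.5. E12.5 replicate 1 was thus close to the E13.5 libraries, although the groups did not overlap. The E12.5 libraries held 200 counts and the E13.5 libraries 1, a ratio of 188 with an exact 95% counting interval of 33.4 to 7477. The fitted log2 fold change was -7.09 (SE 0.74, adjusted p = 0.00995, edgeR quasi-likelihood test, lower in 3 of 3 pairs). At E14.5 the gene was at 0.1, 3.78 and 2.97 CPM. The call was lost without E12.5 replicate 3 (adjusted p = 0.058, edgeR), without E13.5 replicate 2 (0.0991) and without E13.5 replicate 3 (0.999825). Ifi204 has near-identical neighbours, and the counting of reads they share is not given in the sources used here. 2 neighbours were tested, Ifi202b at a log2 fold change of 0.50 (SE 0.33) and Ifi203 at -0.04 (SE 0.51). Ifi204 lies below the level set for naming genes and was named after its values were seen.

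Another gene of the same on-and-off kind, picked after its values were seen, was Nr1h5, a nuclear receptor that binds lanosterol in mice. Its counts were 397, 356 and 19 at E12.5 and 0 in each E13.5 library. At the limit of 3 counts over the group that a count of 0 allows, it was at least 242-fold lower at E13.5, where intervals and limits cover counting error only. It did not pass with all libraries (unadjusted p = 0.0288, edgeR). It passed in edgeR without E12.5 replicate 1 or 2, without E14.5 replicate 1 or 2, without replicate 1 or 2 of every stage, and with the 6 libraries of the 2 stages alone. The E14.5 libraries held 97, 1 and 1 counts. The level thus differed widely within E12.5 and within E14.5.

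Red cell genes were the list furthest from 0 on the low side. Of 27 listed genes with a row in the count data, 23 were tested, and 22 had a negative fold change with a median of -1.22 on the log2 scale, where all genes tested had a median of 0.00. No member passed an adjusted p of 0.05. At an unadjusted p under 0.05, 17 were lower against 1.76% of all genes, 20 were lower in all 3 numbered pairs against 10.4%, and 11 had no overlap between the groups against 1.52%. In bulk tissue fewer red cells in the lung and less of these transcripts per cell cannot be told apart. Sites for the GATA factors, whose founding member Gata1 drives red cell formation, were looked for as letters only. The letters AGATAA, searched on both strands in the window from 250 bases before to 50 after the start of each gene (RefSeq, GRCm38.p6), were found in 6 of the 15 tested red cell genes that have a window (40%) and in 3432 of 27025 genes in all (12.7%). Upstream stretches of 200 bases are printed here for 3 of the 6, to show the motif in place, with AGATAA or its reverse complement TTATCT in capitals. A match is a string of letters and was not tested as a binding site. The stretches are Rhd at chr4:134864336-134864535 (plus strand), Kel at chr6:41704326-41704525 (minus strand) and Trim10 at chr17:36869374-36869573 (plus strand), each read in the direction of the gene.
Rhd: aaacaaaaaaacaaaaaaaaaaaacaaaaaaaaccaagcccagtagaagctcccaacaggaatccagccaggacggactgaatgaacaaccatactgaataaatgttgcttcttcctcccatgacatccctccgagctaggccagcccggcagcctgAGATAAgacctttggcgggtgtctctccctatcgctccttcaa
Kel: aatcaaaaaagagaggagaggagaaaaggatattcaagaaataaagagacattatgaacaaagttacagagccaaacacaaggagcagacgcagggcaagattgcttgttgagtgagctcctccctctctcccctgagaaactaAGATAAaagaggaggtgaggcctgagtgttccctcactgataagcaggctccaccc
Trim10: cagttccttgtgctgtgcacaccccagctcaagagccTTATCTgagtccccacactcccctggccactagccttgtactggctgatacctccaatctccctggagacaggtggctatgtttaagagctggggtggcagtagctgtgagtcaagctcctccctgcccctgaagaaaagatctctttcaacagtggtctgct
The first base of the motif lies at -43 in Rhd, -56 in Kel and -163 in Trim10, counted from the annotated start.

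Among the globins that had counts, the embryonic beta globin Hbb-y (chromosome 7, 103851749 to 103853216, minus strand) was the most abundant. It was at 2824, 2147 and 2282 CPM in E12.5 replicates 1, 2 and 3 and at 1837, 1383 and 998 CPM in E13.5. All E13.5 libraries lay below all E12.5 libraries, and the log2 fold change was -0.79 (SE 0.36, unadjusted p = 0.0865). The other early beta globin, Hbb-bh1, was at 60.7, 177.7 and 305.5 CPM and then at 54.1, 32.5 and 25.2 CPM (-2.09, SE 0.76). For this gene E12.5 replicate 1 was close to the E13.5 libraries and replicate 3 was far above them. The embryonic alpha globin Hba-x was at 186.1, 384.9 and 658.6 CPM at E12.5 and at 169.1, 187.6 and 144.6 CPM at E13.5, with E12.5 replicate 1 inside the E13.5 range. The adult globin symbols Hba-a1, Hba-a2, Hbb-b1 and Hbb-b2 were listed at 0 in all 9 libraries of the time course. Hba-a1 and Hba-a2 are near-identical copies of each other, and Hbb-b1 and Hbb-b2 are close copies. No level was read from these symbols, since the sources do not say how shared reads were treated.

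Of the red cell membrane genes, the anion exchanger Slc4a1 was at 52.2, 112.2 and 218.6 CPM at E12.5 and at 45.5, 60.9 and 56.2 CPM at E13.5 (-0.997, SE 0.41). Rhag and Rhd, of the Rhesus complex, had log2 fold changes of -2.08 (SE 0.51) and -1.87 (SE 0.48), the blood group gene Kel -1.39 (SE 0.50), and the skeleton genes Ank1 and Sptb -1.12 (SE 0.37) and -1.51 (SE 0.57). Among haem enzymes, Alas2, which makes the first intermediate in red cells, was at 66.6, 48.5 and 54.0 CPM and then at 39.955, 26.1 and 24.6 CPM. The Alas2 groups did not overlap and all 3 pairs differed by a similar ratio (-0.92, SE 0.26). Alas2 passed in edgeR without E14.5 replicate 2 and with the 6 libraries of the 2 stages alone. Fech, which inserts the iron, had a log2 fold change of -0.32 (SE 0.11). Among the transcription factors, Klf1, which switches on adult globins, was at 0.578, 1.08 and 1.75 CPM and then at 0.0511, 0.261 and 0.293 CPM (-2.47, SE 0.52), Gata1 had -1.65 (SE 0.49), Nfe2 -1.49 (SE 0.36) and Tal1, which endothelium also expresses, -0.43 (SE 0.13). Aqp1, a water channel that lung endothelium also expresses, was the 1 member above 0, at 0.43 (SE 0.30).

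The red cell list rested unevenly on the libraries. The medians of the pairs were -0.23 for replicate 1, -1.04 for replicate 2 and -2.24 for replicate 3. E12.5 replicate 3 had the highest level of the 6 libraries for 19 of the 23 members, against 17.1% of all genes tested. The summed level of the list was 3465, 3185 and 3899 CPM at E12.5 and 2391, 1869 and 1452 CPM at E13.5. Without Hbb-y it was 641.4, 1038 and 1617 CPM and then 554.7, 486 and 454.6 CPM. Both sums put every E13.5 library below every E12.5 library. The adult globins, listed at 0 in all libraries, add nothing to either sum, so neither is a measure of all red cell transcripts. The median was -0.89 without E12.5 replicate 3, -0.76 without E13.5 replicate 3 and -0.70 without replicate 3 of every stage, and 22 of 23 members stayed below 0 in each case. The number at an unadjusted p under 0.05 was 10 without E12.5 replicate 2 and 10 without replicate 3 of every stage. With E12.5 replicate 1 left out, 5 members passed an adjusted p of 0.05, all lower, and DESeq2 on all libraries called Trim10 (adjusted p = 0.0428). Genes of platelets, the other product of these blood precursors, were looked up after the values were seen. The platelet tubulin Tubb1 had -1.37 (SE 0.32), the chemokine Ppbp -1.44 (SE 0.61) and Pf4 -0.63 (SE 0.35). None passed with all libraries, and Tubb1 and Ppbp passed without E12.5 replicate 1.

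**Figure D2:**
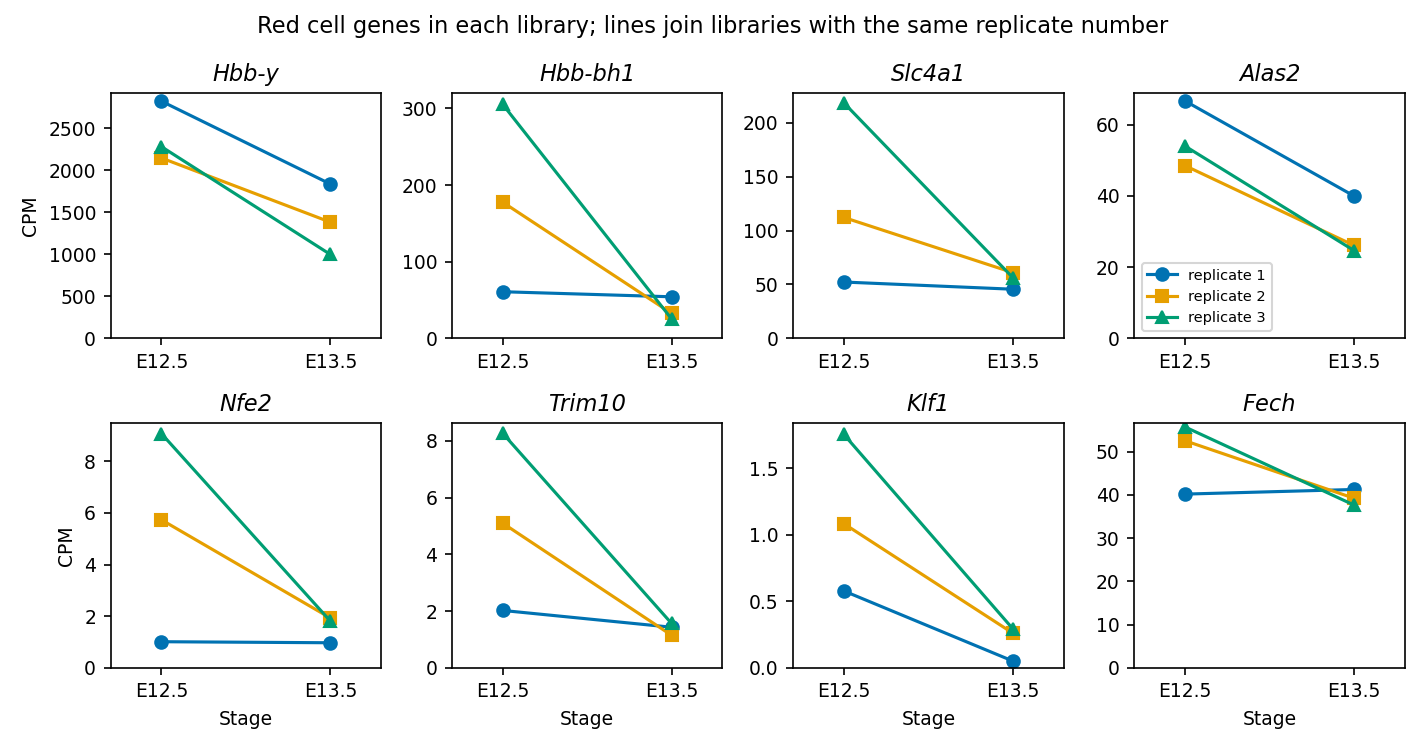
Level in CPM of 8 red cell genes in each library at E12.5 and E13.5, with lines joining libraries of the same replicate number. For Hbb-bh1, Slc4a1, Nfe2, Trim10 and Klf1 the E12.5 libraries are spread widely with replicate 3 on top, while the 3 E13.5 libraries lie close together.

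Outside the blood, the lower gene with the smallest p among those named by the rule was Cox7b, a small subunit of cytochrome c oxidase, the last complex of the respiratory chain (X chromosome, 106015700 to 106022450, plus strand). It was at 46.8, 49.7 and 42.9 CPM at E12.5 and at 33.0, 32.4 and 25.6 CPM at E13.5. The groups did not overlap and the pairs were alike (-0.62, SE 0.12). DESeq2 called it (adjusted p = 0.0103) and edgeR did not. Nuak1, a kinase of the AMPK family, was at 59.5, 63.0 and 74.7 CPM and then at 50.6, 53.1 and 56.2 CPM, without overlap (-0.30, SE 0.08). Depdc1b, a gene of dividing cells, had -0.41 (SE 0.11) and the complement inhibitor Cd59a -0.52 (SE 0.14), both without overlap. Plek, of platelets and leukocytes, had -0.59 (SE 0.15), Trim12c -0.38 (SE 0.10), Hoxc4, a patterning gene, -0.81 (SE 0.23) and Ildr2 -0.71 (SE 0.19), each with libraries of the stages overlapping and 3 of 3 pairs lower. Of these, Plek passed in edgeR without E12.5 replicate 1.

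On the high side the smallest p of the genes named by the rule belonged to Ednrb, the B type endothelin receptor (chromosome 14, 103814625 to 103844402, minus strand). It was at 145, 254.1 and 241.7 CPM at E12.5 and at 161.2, 358.9 and 339.4 CPM at E13.5. Replicate 1 was low at both stages, so the groups overlapped while each pair was higher at E13.5 (0.38, SE 0.08). Kcnj2, an inward rectifier potassium channel (chromosome 11, 111066164 to 111076821, plus strand), was at 21.6, 27.0 and 20.5 CPM and then at 27.7, 42.5 and 45.7 CPM, without overlap (0.72, SE 0.15). DESeq2 called both, with adjusted p = 0.0362 for Ednrb and 0.00572 for Kcnj2. Gfra2, the receptor of neurturin, was at 11.3, 11.2 and 6.87 CPM and then at 15.9, 14.49 and 14.4 CPM, without overlap (0.63, SE 0.14). Scara5, a ferritin receptor, had 0.59 (SE 0.15) without overlap. The other genes named on this side overlapped between stages with 3 of 3 pairs higher: Fzd6, a Wnt receptor of planar cell polarity, at 0.47 (SE 0.11), the scaffold Akap12 at 0.43 (SE 0.11), the ribosome factor Krr1 at 0.35 (SE 0.09), the stretch-gated channel Piezo2 at 0.35 (SE 0.09) and Sepp1, which carries selenium, at 0.30 (SE 0.08). None of these genes passed in edgeR with all libraries, and Ednrb, Kcnj2, Fzd6, Scara5 and Piezo2 passed without E12.5 replicate 1.

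**Figure D3:**
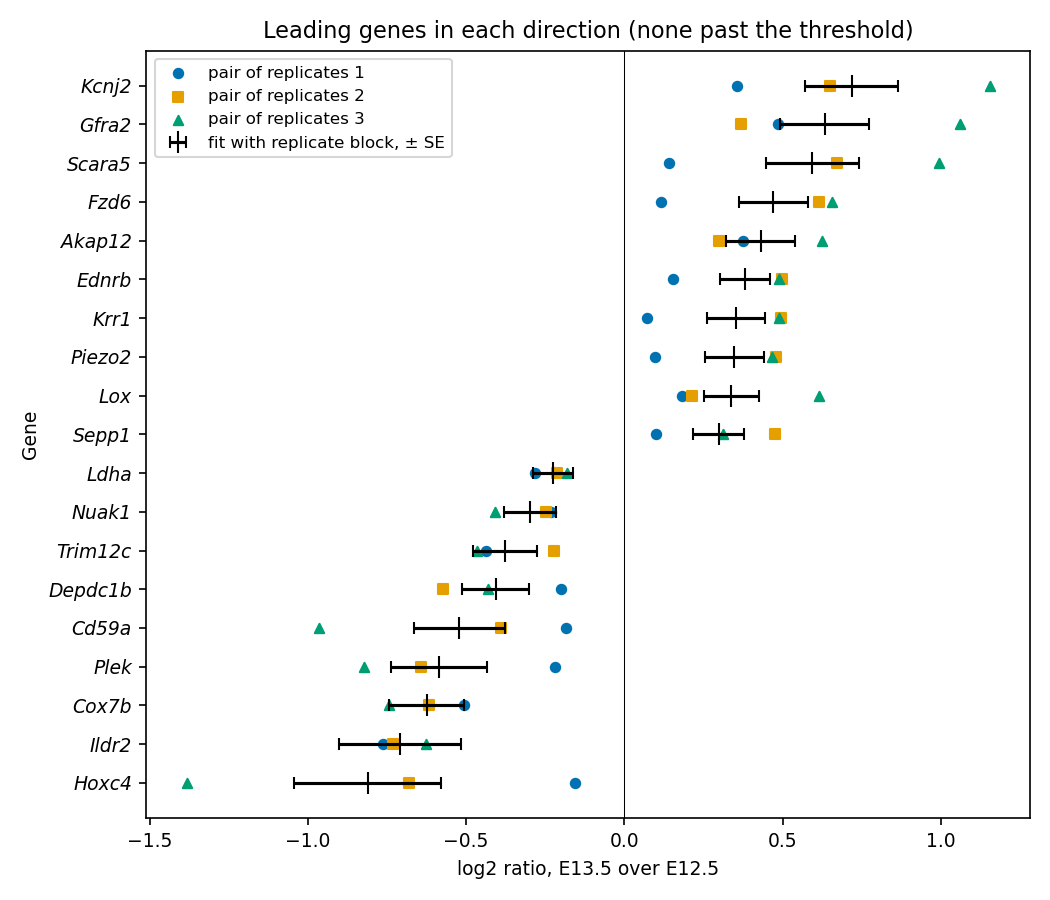
Log2 ratio of E13.5 over E12.5 for the leading genes named on each side, none past the threshold. Coloured symbols are the 3 numbered pairs and black bars the fitted value with its standard error, and for each gene all 3 pairs lie on the same side of 0.

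Genes of fibrillar and elastic matrix, laid down by the mesenchyme, had a median of 0.20, with 21 of 26 members above 0 and none past the threshold. At an unadjusted p under 0.05, 5 were higher against 2.13% of all genes, and 12 were higher in all 3 pairs against 10.9%. Lox, which crosslinks collagen and elastin, was at 143.6, 151.7 and 133 CPM at E12.5 and at 162.9, 175.7 and 203.8 CPM at E13.5, without overlap (0.34, SE 0.09). Col1a1, the main chain of type I collagen, was at 688.7, 434.1 and 405 CPM and then at 831.1, 514.8 and 495.1 CPM (0.27, SE 0.09). Its libraries overlapped, with replicate 1 high at both stages. Fbln5, an elastic fibre protein, had 0.52 (SE 0.16) and Col3a1 0.21 (SE 0.09). Eln, elastin itself, was at 98.8, 45.8 and 16.8 CPM and then at 111.6, 55.2 and 59.6 CPM, so that most of its fitted 0.70 (SE 0.35) lay in the pair of replicates 3. E12.5 replicate 3 was the lowest of the 6 libraries for 20 of the 26 members, against 21.3% of all genes tested. The median of the list was 0.10 without E12.5 replicate 3, 0.08 without E13.5 replicate 3, 0.07 without replicate 3 of every stage and 0.31 without E13.5 replicate 2. The count of 5 became 10, 2, 3, 8 and 3 without E12.5 replicates 1 and 2 and E13.5 replicates 1, 2 and 3.

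Smooth muscle genes lay above 0 in all 15 of 15 members, with a median of 0.29, but not in all pairs: the pair medians were -0.10, 0.40 and 0.65. Acta2, the smooth muscle actin, was at 282.9, 261.4 and 179.1 CPM and then at 268.9, 452.1 and 283.9 CPM (0.45, SE 0.17). Replicates 2 and 3 were higher at E13.5 and replicate 1 was not. Myocd, the coactivator that drives the contractile programme, was at 31.4, 33.9 and 33.2 CPM and then at 27.5, 52.4 and 62.9 CPM (0.46, SE 0.30). Myh11, the smooth muscle myosin, had 0.75 (SE 0.45). None passed with all libraries. With E12.5 replicate 1 left out 4 members passed, and the median was 0.17 without E13.5 replicate 3.

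Striated and cardiac muscle genes had the highest median of the lists, 1.31, with 22 of 25 members above 0 and none past the threshold. 12 were higher in all 3 pairs against 10.9% of all genes, and 6 had no overlap against 1.59%. Most were at low levels, and the filter on low counts also used the E14.5 libraries, where many are high. The 12 and the 6 cover all 25 members, including some that entered only through E14.5, such as Nppa and Myl2, so no result was drawn from them. In a fit of the E12.5 and E13.5 libraries alone 20 members were tested, with a median of 1.1 and 17 above 0. In either fit a member low at E12.5 could enter through E13.5 alone, which favours a higher value at E13.5. Ankrd1, a stress-responsive cofactor of heart muscle and a target of YAP, was at 0.193, 0.271 and 0.0501 CPM and then at 2.55, 0.73 and 1.81 CPM (3.36, SE 1.07). Nppa, the atrial natriuretic peptide, had 2 counts over the E12.5 libraries and 38 over the E13.5 libraries, a ratio of 20.2 with an exact 95% counting interval of 5.21 to 173, and passed in edgeR without E14.5 replicate 1. The ventricular light chain Myl2 had 0 and 8 counts, at least 2.83-fold higher at the limit of 3 counts over the group. The atrial myosin Myh6 was at 17.0, 5.6 and 0.0501 CPM and then at 55.1, 3.55 and 20.03 CPM (2.005, SE 1.34), so the libraries of a stage differed by more than the stages. Actc1, the cardiac actin, was at 54.4, 32.0 and 6.77 CPM and then at 88.7, 45.1 and 61.2 CPM. E13.5 replicate 1 was the highest library for 19 of the 25 members, against 28.7% of all genes tested. The list is also the marker list of heart, and of the heart muscle that sheathes pulmonary veins. The part of such tissue in the pools was not tested. Tbx5 (-0.10), which lung mesenchyme also expresses, Smpx and Ryr2 were the 3 members below 0. The median was 0.74 without E13.5 replicate 1 and 2.02 without E13.5 replicate 2, and in the last case 2 members passed, Ankrd1 and Trim55. Ankrd1 also passed without replicate 2 of every stage. The second-day medians of both muscle lists, from comparisons that share the E13.5 libraries, were 3.57 for striated and 0.11 for smooth muscle.

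Glycolysis and hypoxia genes were shifted slightly and evenly to the low side. Their median was -0.10 and the pair medians were -0.17, -0.14 and -0.10. Of 20 members 14 were below 0, 6 were lower at an unadjusted p under 0.05 against 1.76% of all genes, 7 were lower in all 3 pairs against 10.4%, and none passed. Ldha, lactate dehydrogenase A (chromosome 7, 46841475 to 46855627, plus strand), was at 607.9, 617.3 and 539.6 CPM and then at 500.3, 532.4 and 475.9 CPM. The Ldha groups did not overlap (-0.23, SE 0.06). Aldolase Aldoa had -0.27 (SE 0.08), Pgk1 -0.23 (SE 0.08), phosphofructokinase Pfkl -0.20 (SE 0.07), hexokinase Hk2 -0.17 (SE 0.07) and the glucose transporter Slc2a1 -0.20 (SE 0.09). Of the hypoxia targets outside the pathway, Vegfa had 0.08 (SE 0.08), Bnip3 -0.06 (SE 0.17) and Ndrg1 -0.04 (SE 0.15). The list holds other such targets, so these values do not set hypoxia targets apart from the glycolysis genes. Members of the whole list ran from -0.38 to 0.32, so some not named here lay further from 0. The count of 6 became 4 without E13.5 replicate 1 and 1 without E13.5 replicate 2, and the median was -0.16 without E13.5 replicate 3.

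Early embryonic timing genes, the Lin28 and Hmga2 group that marks young embryonic tissue, had a median of -0.16 with 13 of 17 members below 0. Hmga2, a chromatin protein, was at 499.6, 1458 and 2879 CPM at E12.5 and at 589, 1347 and 1482 CPM at E13.5 (-0.28, SE 0.23). Replicate 1 was low at both stages and E12.5 replicate 3 was the highest library. Lin28b, which blocks the maturation of let-7 microRNAs, followed the same order of libraries within each stage, at 10.6, 34.9 and 63.7 CPM and then 11.6, 28.4 and 29.4 CPM (-0.48, SE 0.24). Lin28a had -1.61 (SE 0.56), Sall4 -0.72 (SE 0.25) and Plagl1, an imprinted growth regulator, 0.25 (SE 0.08). None passed with all libraries, and Lin28a passed without E12.5 replicate 1. E12.5 replicate 3 was the highest library for 12 of the 17 members. The median was -0.03 without E12.5 replicate 3, -0.03 without E13.5 replicate 3 and 0.03 without replicate 3 of every stage.

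The other gene lists, on epithelium, vessels, signalling, division and stress, had medians between -0.22 and 0.31. No member of any of the 37 lists passed in the fit of all 9 libraries. Apart from red cells and striated muscle, 34 lists had 4 or more members tested. With a library or a replicate number left out, the median of 29 of these changed sign. It ran from -0.11 to 0.12 for the endothelial list, -0.05 to 0.02 for the Wnt list and -0.05 to 0.01 for mitosis. The 5 that kept their sign were fibrillar and elastic matrix, smooth muscle, glycolysis and hypoxia, BMP and TGF-beta, and heat shock. Of the 36 lists with 4 or more members tested, 3 had medians above 0 in all 3 pairs (fibrillar and elastic matrix, striated muscle and the immediate early genes), 3 had medians below 0 in all 3 (red cells, glycolysis, and ATF4 and ER stress) and 30 had mixed signs. In the epithelium, Nkx2-1 had a log2 fold change of 0.04 (SE 0.11), Sox9 of the tips -0.08 (SE 0.13), Shh, the ligand that the epithelium sends to the mesenchyme, 0.02 (SE 0.09) and Sftpc, the surfactant gene of distal cells, -0.11 (SE 0.46). The tip genes Mycn and Id2 had -0.28 (SE 0.11) and -0.22 (SE 0.10). Scgb3a2, an early secretory gene of the airways, was at 1.64, 3.34 and 0.401 CPM and then at 1.48, 3.81 and 8.5 CPM, higher in E13.5 replicate 3 than in any other library of the 2 stages (1.31, SE 0.84).

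Among signals of the mesenchyme, Fgf10, which draws the tips outward, was at 46.3, 67.0 and 55.6 CPM and then at 44.8, 86.2 and 86.1 CPM (0.31, SE 0.14). Fgf10 was higher at E13.5 in replicates 2 and 3 and not in replicate 1. Fgf9, of epithelium and mesothelium, had 0.26 (SE 0.11). The Wnt agonist Rspo3 had 0.61 (SE 0.18), the receptor Lgr6 0.64 (SE 0.20) and the antagonist Dkk1 -1.06 (SE 0.41), while the list of 26 Wnt genes had a median of -0.03. The hedgehog coreceptor Boc had 0.20 (SE 0.09) and Rdh10, which makes the precursor of retinoic acid, 0.33 (SE 0.11). In the vessels Pecam1 had 0.02 (SE 0.11), with a list median of 0.03, and the lymphatic receptor Flt4 0.29 (SE 0.11). Division genes had medians of -0.02 for mitosis and -0.05 for S phase and replication, with 0 of 20 members of either list at an unadjusted p under 0.05. The cholesterol and fatty acid list had 18 of 19 members below 0, but its pair medians were 0.02, -0.03 and -0.38, so it rested on the pair of replicates 3. Oasl2, an interferon-induced gene, was at 1.2, 1.22 and 3.01 CPM and then at 0.358, 0.469 and 0.538 CPM (-1.92, SE 0.42), while the interferon list had a median of -0.03.

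**Figure D4:**
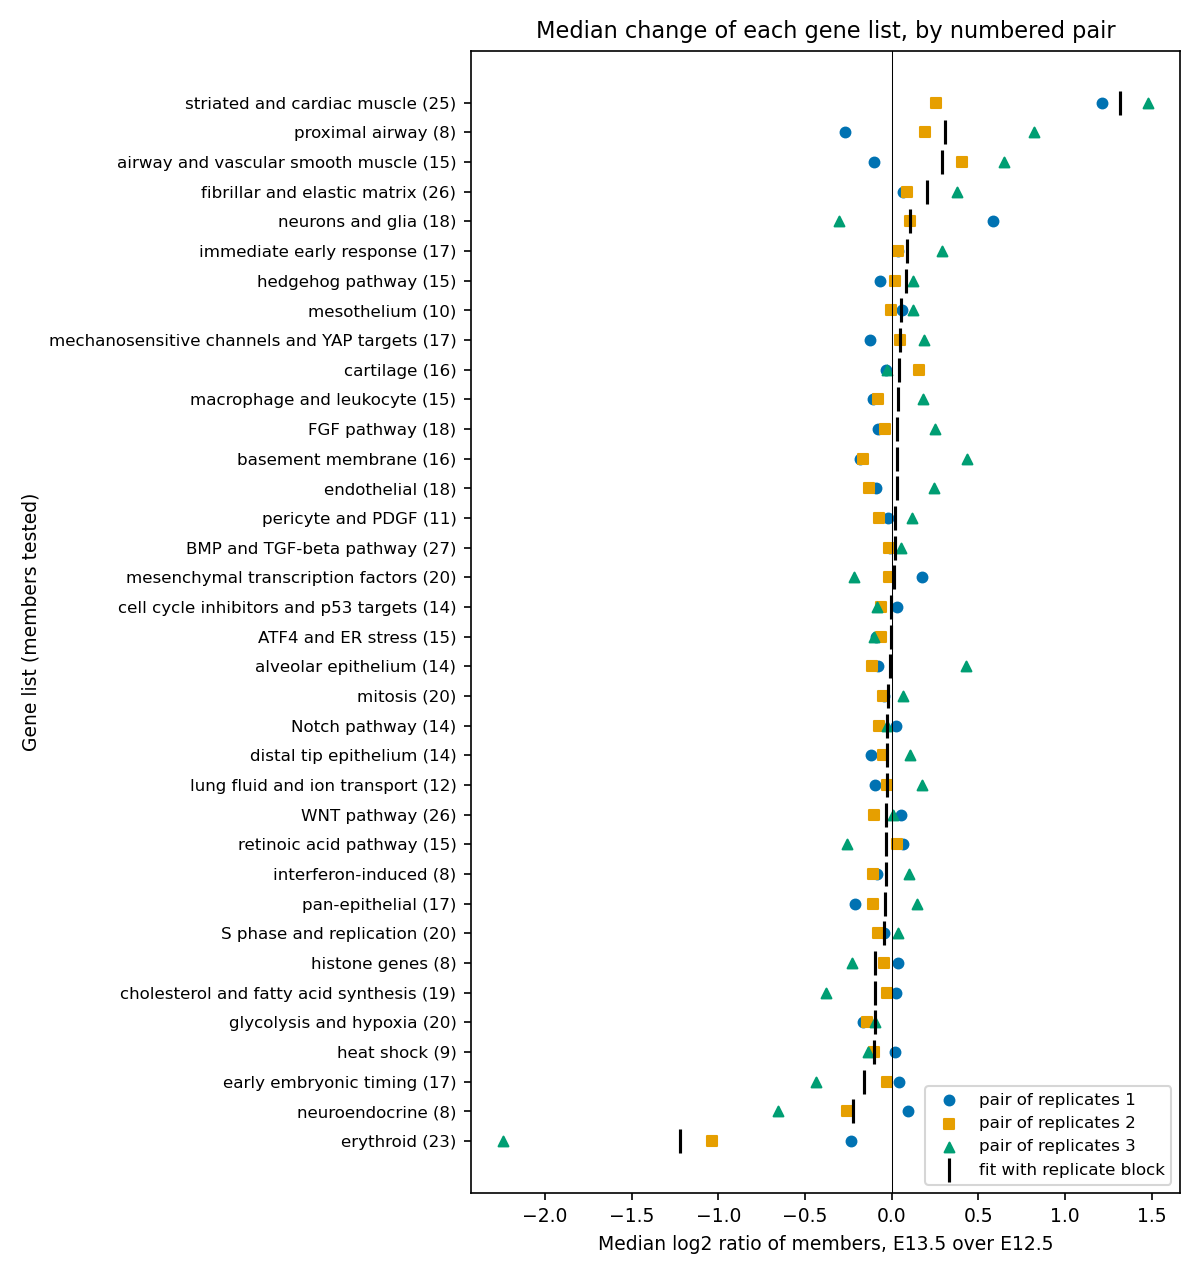
Median log2 ratio of E13.5 over E12.5 of each gene list with 4 or more members tested, by numbered pair (coloured symbols) and in the fit with the replicate block (black bars). Red cell genes lie at -1.22 and striated muscle genes at 1.31, and the other lists between -0.22 and 0.31.

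Whether a gene's step on the second day differed from its step on the first was tested directly, in a contrast in which the E13.5 libraries enter both steps with opposite signs, so that a low level at E13.5 alone makes the steps differ. This difference passed for 3 genes (0.0211%), Ifi204, Ildr2 and Strip2. Ildr2, a membrane protein of the immunoglobulin family, was at 4.14, 7.85 and 10.9 CPM at E12.5, at 2.4, 4.69 and 7.04 CPM at E13.5 and at 8.16, 24.4 and 19.4 CPM at E14.5. In each replicate number the middle stage was lowest. The first step was -0.71 (SE 0.19), the second 1.88 (SE 0.19), and the difference passed at an adjusted p of 0.0439 (edgeR). Strip2, a subunit of a phosphatase complex, was at 0.819, 0.948 and 0.601 CPM, then 0.204, 0.313 and 0.244 CPM, then 2.55, 8.97 and 4.16 CPM (adjusted p = 0.0439 for the difference, edgeR). The count of 3 was 7, 1 and 31 without E12.5 replicates 1, 2 and 3, 1, 0 and 11 without E13.5 replicates 1, 2 and 3, and 8 without E14.5 replicate 2. Cox7b was also lowest at E13.5, with 54.9, 65.0 and 35.3 CPM at E14.5, and did not pass (adjusted p of the difference 0.0841, edgeR). For Ldha, at 614.3, 679.4 and 615.7 CPM at E14.5, it was 0.236. Col1a1 had 0.27 on the first day and rose by 0.64 on the second (SE 0.09, adjusted p = 0.0039, edgeR), with a difference between steps of 0.37 that did not pass (adjusted p = 0.593, edgeR). For Lox, with 0.34 and then 0.52 (SE 0.09, adjusted p = 0.0083, edgeR), the difference did not pass either (adjusted p = 0.831, edgeR). Ednrb and Kcnj2 had second steps of 0.06 (SE 0.08) and 0.09 (SE 0.14), and their differences between steps did not pass.

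**Figure D5:**
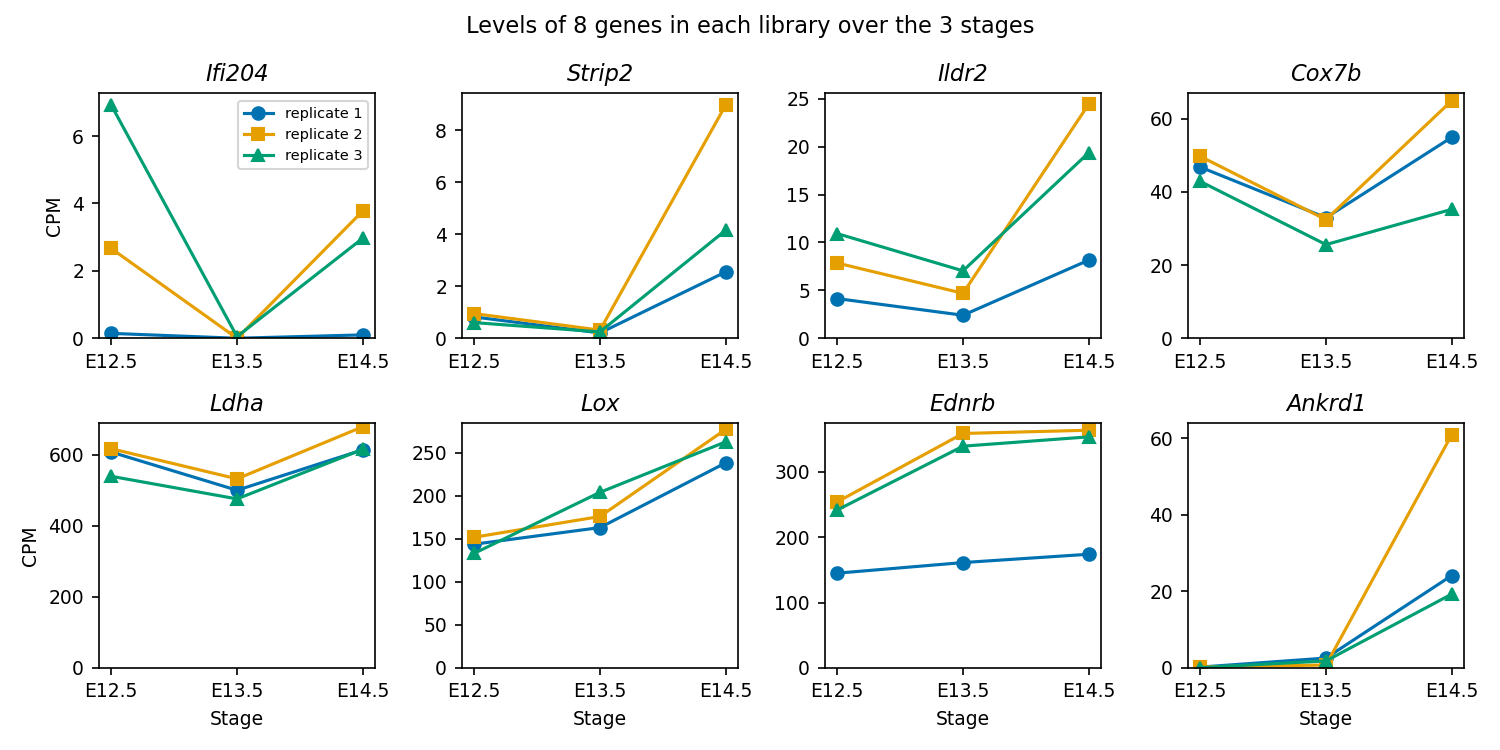
Level in CPM of 8 genes in each library over the 3 stages, with lines joining libraries of the same replicate number. Ifi204, Strip2, Ildr2, Cox7b and Ldha are lowest at E13.5 in each replicate number, Lox is higher at each later stage, Ednrb is nearly level after E13.5 and Ankrd1 reaches its highest values at E14.5.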

How the data were processed

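RNA sequencing libraries (PrepX kit) were made from pooled whole lungs, per the labels' protocols. The submitters' processing notes name build mm10, HTSeq, DESeq2, TopHat, cutadapt 1.6 and Bowtie 1.1.1. Neither gene annotation nor strand setting is given in the sources used here. The authors deposited raw whole-number counts per gene for 9 fresh-lung libraries, and only these were used. Depth limits genes of a few counts, and the text gives counting intervals for those it sets as ratios.

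The 9 libraries were fitted with edgeR 4.0.16 in R 4.3.3 (TMM, filterByExpr by stage, robust quasi-likelihood) on stage and replicate number, with p-values adjusted by Benjamini-Hochberg over the 14242 genes tested, a threshold of 0.05 and 4 residual degrees of freedom. CPM uses the TMM library size, pair ratios a prior count of 2, and SE is the size of the log2 fold change over the square root of F. The replicate numbers come from the labels. Deviations from the stage means correlated at 0.397 to 0.838 in the 9 pairs of the same number and at -0.736 to 0.625 in the 18 others, so the block was kept. The pattern is that of replicate 1 against the rest: among replicates 2 and 3 the correlations were 0.397 to 0.606 within a number and 0.454 to 0.625 across numbers, so these data do not show that 2 pairs with 2 or 3 with 3. An exact permutation test of 3 against 3 libraries cannot go below p = 0.1, so none is given. The fitting script was tested on simulated data. Alternatives were no block, replicate 1 as a batch term, 6 libraries alone, DESeq2 1.42.0, limma-voom (limma 3.58.1), other size factors, 2 other filters and each library or replicate number left out.

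The comparison and the 37 gene lists were chosen with earlier results of these data known, so lists are described by counts and medians without tests. Named genes are up to 15 past the threshold in each direction averaging 5 CPM or more and with 3 pairs of the same sign, filled to 10 by the smallest p, up to 4 members of each list by p, 14 fixed genes, and up to 4 each way by step difference. Others were singled out after their values were seen: Ifi204, Strip2, Nr1h5, the platelet genes, the DESeq2 calls and further list members. Some results are not reported here. Coordinates are from GENCODE M21 on GRCm38, the assembly that mm10 names, and promoter sequences from RefSeq.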

Additional observations from a re-analysis of the deposited data

Results flagged for a closer look

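The difference between the second-day and the first-day step passed edgeR's test for 3 genes, and no other result met the conditions for a closer look. The log2 difference was 13.796 for Ifi204 (adjusted p = 0.0091, edgeR), whose counts are near 0 at E13.5, 5.88 for Strip2 and 2.59 for Ildr2 (adjusted p = 0.0439 for both, edgeR). In each of the 3 genes the E13.5 library was the lowest of its replicate number in 3 of 3 numbers. DESeq2 found 50 such genes, and limma-voom and the fit with no block 0.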

How the results depend on the processing

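The count of 1 gene called between E13.5 and E12.5 was 0 with no replicate block, at a mean of at least 5 CPM and in limma-voom, 3 with the 6 libraries of these stages alone (1 higher and 2 lower) and 10 in DESeq2 (4 higher and 6 lower). With a library or a replicate number left out it ran from 0 to 41, with 0 to 16 higher and 0 to 25 lower. Ifi204 kept a negative fold change in each fit that tested it, with adjusted p from 8.14e-06 to 0.999986, and lost its call in 8. The 3 calls with 6 libraries were A730098P11Rik, Alas2 and Nr1h5. The DESeq2 calls included Ifi204, Hemgn, Trim10, Nr1h5 and Cox7b lower and A730098P11Rik, Ednrb, Kcnj2 and Phex higher. The count for E14.5 against E13.5 was 0 with no block, 567 at a mean of at least 5 CPM and 77 to 1296 with libraries left out. The count of step differences was 0 with no block, at 5 CPM and in limma-voom, 50 in DESeq2, 1 with the other size factors, 9 with no filter and 0 to 94 with libraries left out. The cause was not tested. In leave-one-out fits, chosen after seeing the data, the medians ran from 0.74 to 2.02 for striated muscle, -0.161 to -0.0741 for glycolysis, -9.38e-05 to 0.20 for hedgehog, 0.00508 to 0.124 for BMP and TGF-beta, -0.0621 to 0.0347 for Notch, -0.0432 to 0.145 for pericyte and PDGF, -0.0197 to 0.116 for mesothelium, -0.0695 to 0.01995 for S phase and -0.0419 to 0.0155 for ATF4 and ER stress. For the named genes 3930 fold changes were refitted. Of these, 3832 kept both call and sign, or changed sign without a call by less than the standard error of the main fit. A further 48 changed sign by at least that standard error, with no call in either fit. A call was lost in 8 and gained in 42, and 0 changed sign with a call in either fit.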
